A study of Mus musculus with 8 samples.

Results

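Small leucine-rich proteoglycans are secreted proteins with a core of leucine-rich repeats, most of which carry glycosaminoglycan chains. The 9 genes described here are Dcn (decorin), Lum (lumican), Bgn (biglycan), Fmod (fibromodulin), Ogn (osteoglycin), Prelp (proline and arginine rich end leucine rich repeat protein), Aspn (asporin), Omd (osteomodulin) and Podn (podocan). They were chosen by symbol among the 24346 gene symbols listed for each library, and all 9 were found in all 8 libraries. RNA sequencing was done on mesenchymal cells of the mouse large intestine, sorted as gp38-positive and PDGFRα-high after cells bearing CD45, EpCAM, CD31 or Ly6C were gated out. The genotype libraries are 1 from untreated Cxcl12 flox/flox control cells and 1 from untreated Foxl1cre; Cxcl12 flox/flox cells, in which Cre is driven by Foxl1, a transcription factor gene of subepithelial mesenchymal cells. Both carry the floxed Cxcl12 gene, and the labels state neither their strain background nor the number and age of the mice. The other 6 libraries come from C57BL/6 cells treated with 1 mM GABA and 20 mM taurine, 3 at 0 h and 3 at 6 h. No untreated 6 h library is among them, so time and treatment cannot be told apart, and the labels do not say that replicates were separate animals or cultures. All values are in FPKM, a unit that divides fragments by the length of the transcript and the size of the library, so levels of different genes can be compared.

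Proteins of this family bind collagen fibrils and set their spacing and diameter, and several of them also hold growth factors such as TGF-β in the matrix or bind cell surface receptors. Decorin, biglycan and asporin form class I, lumican, fibromodulin, Prelp and osteomodulin class II, osteoglycin belongs to class III, and podocan to class V. Fibroblasts of connective tissue, the gut wall included, are their usual source. Several of the genes lie side by side in the genome (GRCm38, GENCODE vM21). Dcn (chromosome 10, 97479609 to 97518143) is followed by Lum (97565128 to 97572703) after 47.0 kb. Aspn (chromosome 13, 49544443 to 49567565), Omd (49582462 to 49592822) and Ogn (49608046 to 49624501) follow each other after 14.9 and 15.2 kb, all on the plus strand. Prelp (chromosome 1, 133910304 to 133921414) and Fmod (134037254 to 134048277) lie on opposite strands of chromosome 1, Bgn on chromosome X (73483602 to 73495933) and Podn on chromosome 4 (108014791 to 108096445).

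The Aspn, Omd and Ogn genes all lie within the span of Cenpp, a centromere protein gene on the opposite strand, and an exon of Aspn overlaps one of Cenpp. The library kit does not mark strand, so reads of overlapping exons cannot be told apart. Cenpp itself stood at 1.65 and 0.941 FPKM in the genotype libraries, and its highest value in the other 6 was 0.709 FPKM. An exon of Prelp overlaps the antisense gene Gm15851, for which no value was used here. The span of Podn overlaps that of Scp2 on the same strand, but their exons do not overlap. Scp2 stood at 52.0 and 54.1 FPKM in the genotype libraries and 21.9 to 26.8 FPKM in the others.

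The promoters of 4 members are shown because Bgn had the smallest and Ogn the largest difference between the 2 sets of libraries, and Omd and Aspn are the neighbours of Ogn. These 4 were chosen after their values were seen. Each sequence is the 250 bases before the RefSeq transcription start (GRCm38.p6), 5′ to 3′ on the plus strand. They span chrX:73483351-73483600 (Bgn), chr13:49607765-49608014 (Ogn), chr13:49544193-49544442 (Aspn) and chr13:49582212-49582461 (Omd). The RefSeq start of Ogn lies before its GENCODE start (49608046). The 30 bases checked after it were in no GENCODE Ogn transcript, while those of the other windows shown were in a transcript of their gene. Capitals mark matches, on either strand, to a TATA box (TATAAA), a GC box (GGGCGG), an AP-1 site (TGANTCA) or a CCAAT box (CCAAT).
Bgn: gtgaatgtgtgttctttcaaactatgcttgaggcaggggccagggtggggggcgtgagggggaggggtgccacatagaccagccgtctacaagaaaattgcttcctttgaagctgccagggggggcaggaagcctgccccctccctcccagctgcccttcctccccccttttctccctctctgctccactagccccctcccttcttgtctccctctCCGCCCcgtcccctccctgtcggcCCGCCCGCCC
Ogn: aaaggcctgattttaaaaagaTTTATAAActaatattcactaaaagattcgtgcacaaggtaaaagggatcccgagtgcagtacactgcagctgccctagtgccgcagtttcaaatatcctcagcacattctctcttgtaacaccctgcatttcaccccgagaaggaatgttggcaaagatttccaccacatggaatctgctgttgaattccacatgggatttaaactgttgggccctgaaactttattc
Aspn: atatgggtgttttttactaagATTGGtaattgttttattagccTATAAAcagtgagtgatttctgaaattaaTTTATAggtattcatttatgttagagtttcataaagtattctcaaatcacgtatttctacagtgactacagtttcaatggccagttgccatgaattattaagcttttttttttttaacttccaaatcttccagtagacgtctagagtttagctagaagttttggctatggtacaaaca
Omd: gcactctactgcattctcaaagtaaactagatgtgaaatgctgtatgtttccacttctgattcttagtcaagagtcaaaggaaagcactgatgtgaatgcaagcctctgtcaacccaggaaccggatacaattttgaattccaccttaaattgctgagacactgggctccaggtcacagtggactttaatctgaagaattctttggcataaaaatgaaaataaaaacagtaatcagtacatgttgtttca
Promoter sequences were matched for 7 of the 9 genes, all but Dcn and Lum. The Bgn window holds 3 GC box matches, of which 2 overlap, where 32.7% of all 32851 promoter windows of that length hold at least 1. Its GC content is 64.4%, against a median of 52.4% over all windows. The 3 windows of the chromosome 13 genes have lower GC contents of 42% (Ogn), 30% (Aspn) and 38.4% (Omd). TATA box matches were found in the Ogn and Aspn windows, at 222 to 229 and 173 to 207 bases before the start, and 12.4% of all windows hold at least 1. The Aspn window also holds 1 CCAAT box match, as do 33.9% of all windows, and the AP-1 motif, present in 6.75% of all windows, matched none of the 4. A match describes these letters and is not a measured binding site.

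Summed FPKM was 513001 in the control library, 528318 in the Foxl1cre library and 550914 to 579004 in the other 6. Genes above 0 numbered 21006 and 20874 in the genotype libraries and 14818 to 14974 in the other 6. Cxcl12 stood at 739.7 FPKM in the Foxl1cre library and 1298 FPKM in the control, 57% of the control value. The Foxl1 gene was at 10.2 and 11.6 FPKM in the genotype libraries and between 0.109 and 0.289 FPKM in the other 6. Of the genes of the sorting gate, Pdgfra (152.3 to 227.3 FPKM) and Pdpn, which encodes gp38 (91.7 to 303.7 FPKM), were present in all 8 libraries. Ly6c1, which encodes a form of the Ly6C that the sort gated out, stood at 140.9 and 89.6 FPKM in the genotype libraries and between 8.76 and 12.4 FPKM in the others. Epcam, Ptprc (CD45) and Pecam1 (CD31) were at most 0.48 FPKM in the GABA and taurine libraries. In the genotype libraries they lay between 2.75 and 14.6 FPKM.

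In the untreated genotype libraries decorin ranked 2 among all 24346 genes. It stood at 5741 FPKM in the control library and at 6218 FPKM in the one with Foxl1cre. Lumican followed at 1644 and 1839 FPKM and biglycan at 1168 and 1247 FPKM. Osteoglycin stood at 708.6 and 653.7 FPKM, Prelp at 362.7 and 343.8 FPKM and asporin at 298.7 and 328 FPKM. Podocan (55.3 and 68.3 FPKM) and osteomodulin (44.4 and 38.4 FPKM) came next, and fibromodulin, a close relative of lumican that is known from tendon and cartilage, was the lowest at 3.07 and 5.14 FPKM. The order of the 9 genes was the same in both libraries and no neighbouring pair in it overlapped. Together they held 1.95% and 2.03% of all FPKM.

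**Figure D1:**
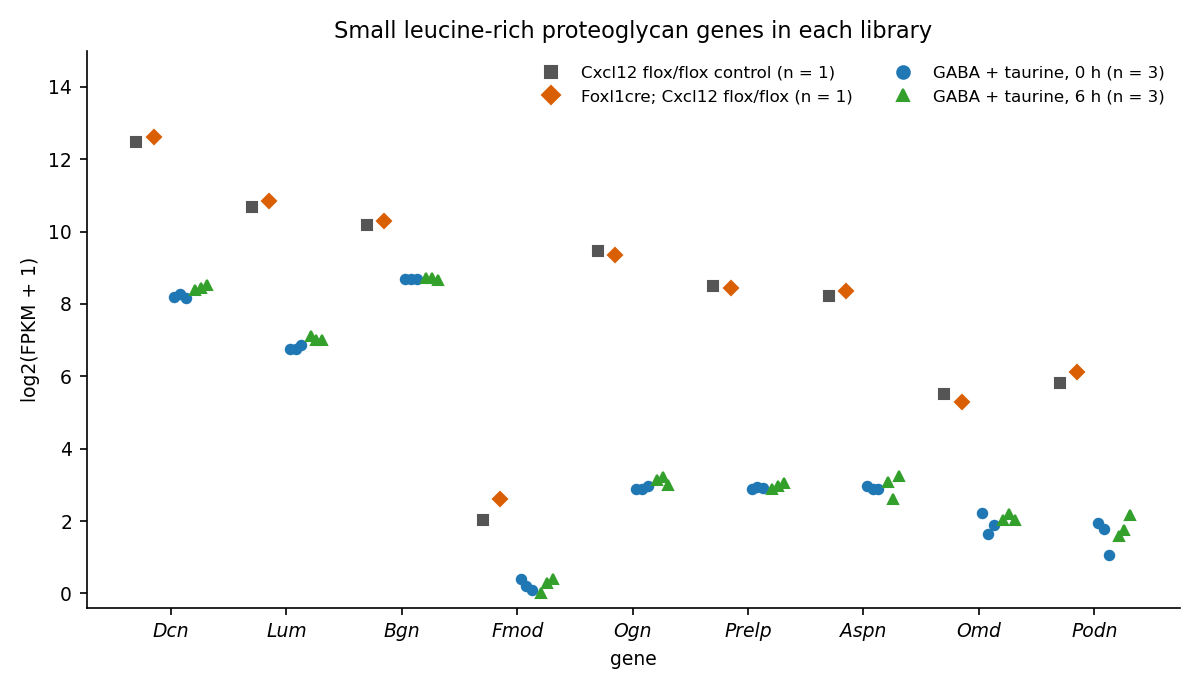
Level of each of the 9 genes in each of the 8 libraries, as log2(FPKM + 1). Each point is 1 library, and the GABA and taurine libraries lie below both genotype libraries for every gene, with Bgn the closest and Ogn the furthest apart.

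In the GABA and taurine libraries all 9 genes were lower than in both genotype libraries, and the size of the gap differed widely between genes. Biglycan, the class I proteoglycan that in soluble form is a ligand of Toll-like receptors, was the most abundant member there. Its 0 h values were 411.7, 408.1 and 408.2 FPKM and its 6 h values 418.9, 420.8 and 404.1 FPKM. Mean biglycan was 2.93 times as high in the genotype set as in the GABA and taurine set. Its percentile among genes above 0 was 99.8 in both genotype libraries and between 98.5 and 98.6 in the others.

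Decorin, the class I member that sheathes collagen fibrils and binds TGF-β, stood at 290.5, 309 and 288 FPKM at 0 h and 332.8, 345.5 and 363.9 FPKM at 6 h. Its mean was 18.6 times as high in the genotype set, and its rank in the GABA and taurine set lay between 245 and 343. Asporin, the class I member named for its run of aspartates, stood at 6.84, 6.41 and 6.4 FPKM at 0 h and 7.44, 5.07 and 8.49 FPKM at 6 h, with a mean 46.3 times as high in the genotype set.

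Among class II genes, lumican, a keratan sulfate carrier that regulates fibril diameter, stood at 106.4, 106.6 and 114.9 FPKM at 0 h and 137.7, 126.7 and 127.5 FPKM at 6 h. The genotype set mean was 14.5 times as high. Prelp, a linker of basement membrane heparan sulfate to collagen, stood at 6.42, 6.61 and 6.59 FPKM at 0 h and 6.42, 6.77 and 7.32 FPKM at 6 h, and was 52.8 times as high in the genotype set. Osteomodulin, best known from bone, stood at 3.68, 2.09 and 2.73 FPKM at 0 h and 3.09, 3.61 and 3.11 FPKM at 6 h, and was 13.6 times as high in the genotype set. Fibromodulin was between 0.0568 and 0.327 FPKM in 5 libraries and listed at 0 in 6 h replicate 1, so its ratio is not given.

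Osteoglycin, of class III, had the largest ratio. It stood at 6.34, 6.41 and 6.85 FPKM at 0 h and 7.82, 8.31 and 6.92 FPKM at 6 h, and its mean was 95.8 times as high in the genotype set. The lowest genotype value was still 78.7 times the highest GABA and taurine value. Its percentile was 99.5 and 99.6 in the genotype libraries and between 50 and 54.3 in the others. Podocan, of class V, stood at 2.86, 2.41 and 1.1 FPKM at 0 h and 2.0, 2.34 and 3.48 FPKM at 6 h, and its mean was 26.1 times as high in the genotype set. Within the GABA and taurine set Bgn lay above Dcn and Dcn above Lum in every library. The values of Ogn, Prelp and Aspn overlapped, as did those of Omd and Podn, so their order there is not resolved.

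A gene was counted as higher when the sets did not overlap and their means differed by at least 1 on the log2(FPKM + 1) scale. Of the 9 members, 8 averaged 1 FPKM or more in each set, and all 8 were counted as higher in the genotype set, where 15.5% of the 10582 genes with such levels were. The median difference was 4.23 over these 8 members and -0.16 over those genes. Fmod reached 1 FPKM over the 8 libraries through the genotype libraries alone, so it had to differ and is left out of that count. Over the 12043 genes that averaged 1 FPKM over the 8 libraries, 21.9% were higher and 19.8% lower in the genotype set. The members' differences ran from 1.55 (Bgn, percentile 85.3 of these genes) to 6.40 (Ogn, percentile 99.8). No test was made, because the sets may have been scaled separately by the authors and differ in genotype and treatment. The labels do not settle whether strain and the handling of the cells differed too. All 9 members already lay below both genotype values at 0 h, with Ogn at 6.34 to 6.85 and Dcn at 288 to 309 FPKM. Genotype, scaling, strain, handling and treatment up to that time cannot be told apart, and none was tested. Ranks and shares within a library do not depend on that scaling, but percentiles among genes above 0 rest on fewer genes in the GABA and taurine libraries. In bulk libraries, fewer cells of a type and less RNA per cell cannot be told apart either.

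**Figure D2:**
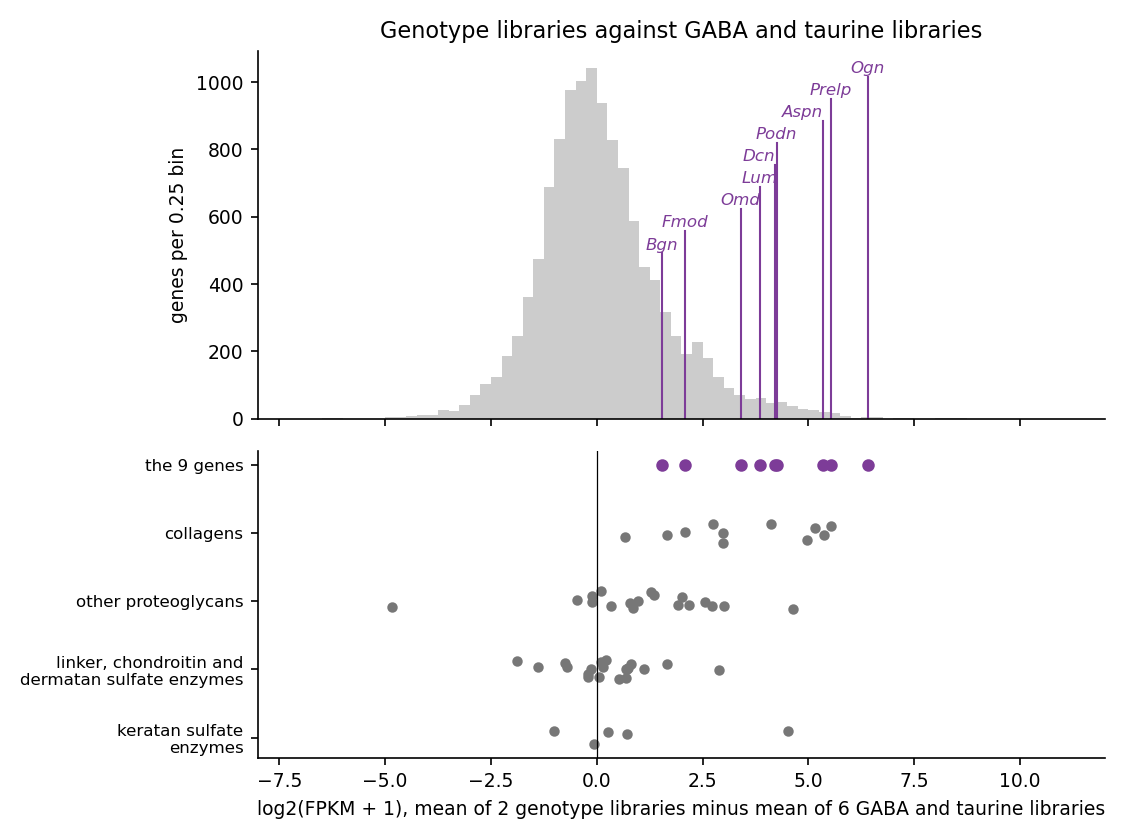
Upper panel: histogram of the log2(FPKM + 1) difference between the genotype set (2 libraries) and the GABA and taurine set (6 libraries) for 12043 genes, with the 9 genes as lines whose heights only separate the labels. Lower panel: the same difference for the 9 genes, collagens, other proteoglycans and the 2 lists of chain enzymes, 1 point per gene with vertical scatter for legibility; the 9 genes lie from 1.55 to 6.40.

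The make-up of the family differed between the sets as well. Decorin made up 57.3% and 57.9% of the summed FPKM of the 9 genes in the genotype libraries and 34.5% to 39.3% in the GABA and taurine libraries. Biglycan made up 11.6% in each genotype library and 43.7% to 49.3% in the others. Osteoglycin made up 7.07% and 6.09%, against 0.748% to 0.904%. The lumican share differed least among the abundant members, at 16.4% and 17.1% against 12.6% to 15%. The ratio of decorin to biglycan was 4.92 and 4.99 in the genotype libraries and between 0.705 and 0.90 in the others. The chromosome 13 neighbours did not keep their proportions: Ogn was 15.9 and 17 times the level of Omd in the genotype libraries and 1.72 to 3.06 times in the others. The ratio of Ogn to Aspn differed less, at 1.99 to 2.37 against 0.816 to 1.64. Dcn and Lum, the neighbours on chromosome 10, had ratios of 3.38 and 3.49 against 2.42 to 2.90.

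**Figure D3:**
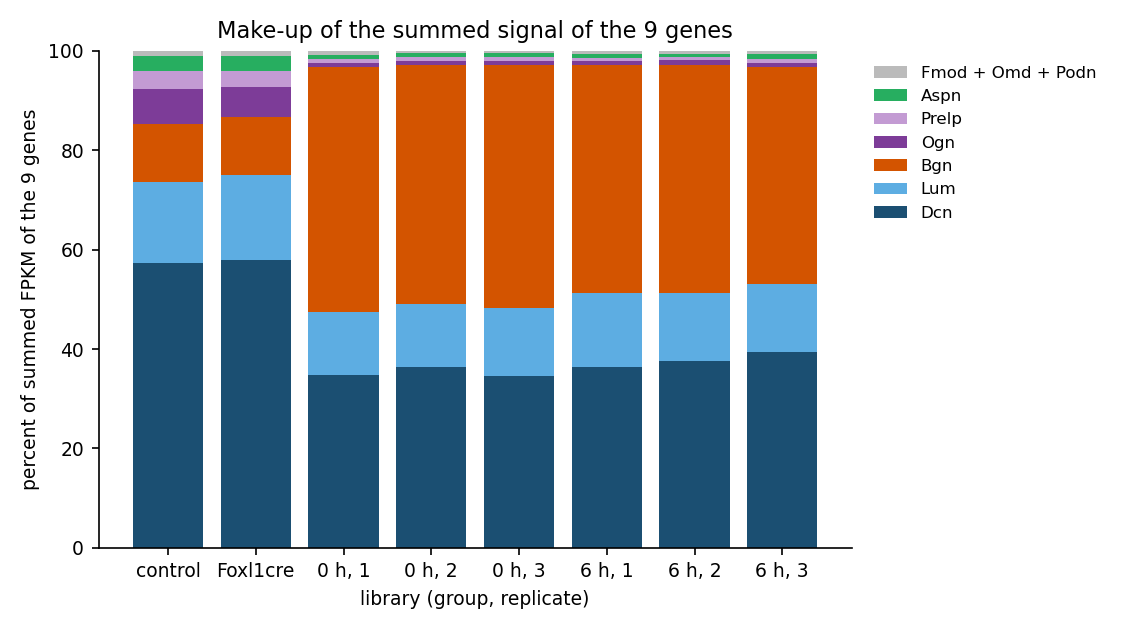
Share of each gene in the summed FPKM of the 9 genes, 1 stacked bar per library, in percent. Bgn takes 11.6% in both genotype libraries and 43.7% to 49.3% in the 6 GABA and taurine libraries.

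Other genes of the pathway were compared between the sets in the same way, over those that averaged 1 FPKM or more in each set. Of all 10582 genes at such levels 1645 (15.5%) counted as higher in the genotype set and 2235 as lower, with a median of -0.16. Of 11 collagens that the family binds, 10 counted as higher in the genotype set and 0 as lower, with a median difference of 2.99. Of 15 other matrix proteoglycans 7 were higher and 1 lower, with a median of 0.97. The enzymes that build the linker and the chondroitin or dermatan sulfate chains had a median of 0.19, with 3 of 20 higher and 2 lower. Of 4 keratan sulfate enzymes 0 were higher and 1 lower. Of 3 further family members 0 were higher, and Tsku was lower (5.52 and 5.3 FPKM against 11.9 to 14.7 FPKM). Ecm2, which lies before Aspn on chromosome 13, stayed below 1 FPKM in the GABA and taurine libraries and is in no count. It stood at 28.6 and 31.3 FPKM against 0.534 to 0.985 FPKM. Kera, next to Lum, stood at 2.05 and 1.37 FPKM and was listed at 0 in all 6 GABA and taurine libraries.

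Of 8 proteases and their enhancers, 6 were higher and 2 lower in the genotype set, where 15.5% of all genes at such levels were higher. Mmp3, a stromelysin that cleaves decorin, stood at 24 and 33.8 FPKM in the genotype libraries and 526 to 709.2 FPKM in the others. Of 17 receptors and ligands that family members bind, 5 were higher and 3 lower. Genes named in this and the preceding paragraph for their difference between the sets were chosen after their values were seen.

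Marker genes of several cell types moved between the sets in the same comparison. Of all genes that averaged 1 FPKM or more in each set, 15.5% counted as higher in the genotype set. The summed FPKM of 10 markers of CD81-positive or adventitial fibroblasts was 2027 and 2129 in the genotype libraries and 541.6 to 614.7 in the others, and 7 of the 8 that averaged 1 FPKM or more in each set counted as higher in the genotype set. For 9 markers of Foxl1-positive subepithelial cells the sums were 1121 and 1232 against 637.6 to 841, with 4 of 6 higher. Summed markers of epithelium (91.6 and 959.9 against 1.58 to 5.23), leukocytes (74.3 and 92 against 0.639 to 2.25), endothelium (18.9 and 41.9 against 1.65 to 5.12) and pericytes (79.1 and 79.3 against 11.6 to 14.8) were also higher in the genotype set. Smooth muscle markers were mixed. Their sum was lower in the genotype set (679.5 and 815.9 against 1131 to 1253), with Acta2, Tagln, Smtn and Actg2 lower there, while Myh11 (15.8 and 14.9 against at most 1.18 FPKM), Cnn1 and Des had higher means. Enteric glia markers summed to 4.86 and 5.5 against 0.562 to 0.743, and mesothelial markers to 1.58 and 2.96 against 0.883 to 2.22. The part of these cell types in the differences of the 9 genes was not tested.

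After 6 h of GABA and taurine, decorin and lumican had the clearest differences in the family, both towards higher values, and neither passed the test over all genes. Decorin went from 295.8 ± 11.5 to 347.4 ± 15.6 FPKM (SD, n = 3) and lumican from 109.3 ± 4.84 to 130.6 ± 6.12 FPKM. For both, all 3 values at 6 h lay above all 3 at 0 h. The log2 difference was 0.23 for Dcn (SE 0.05, limma adjusted p = 0.0961) and 0.25 for Lum (SE 0.06, limma adjusted p = 0.0963). The exact two-sided permutation test gave p = 0.1 for each, the smallest p that 3 against 3 libraries allow. Their unadjusted limma p-values ranked 98 and 105 among 10910 genes.

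Osteoglycin went from 6.53 ± 0.273 to 7.68 ± 0.703 FPKM, also with no overlap between the times (log2 difference 0.20, limma adjusted p = 0.641). These 3 members are those of the 9 with all 6 h values above all 0 h values, where 7.25% of the genes tested had this order, and 0 members had the opposite order, as 8.01% of genes did. Biglycan was nearly level, at 409.4 ± 2.05 and 414.6 ± 9.11 FPKM, and its log2 difference of 0.02 had a 95% interval from -0.08 to 0.12. Prelp, at 6.54 ± 0.103 and 6.84 ± 0.449 FPKM, and asporin, at 6.55 ± 0.25 and 7 ± 1.75 FPKM, had overlapping values at the 2 times. Osteomodulin, at 2.83 ± 0.799 and 3.27 ± 0.296 FPKM, and podocan, at 2.12 ± 0.918 and 2.61 ± 0.775 FPKM, were the most variable, and the 95% interval of the podocan difference ran from -0.28 to 0.74.

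**Figure D4:**
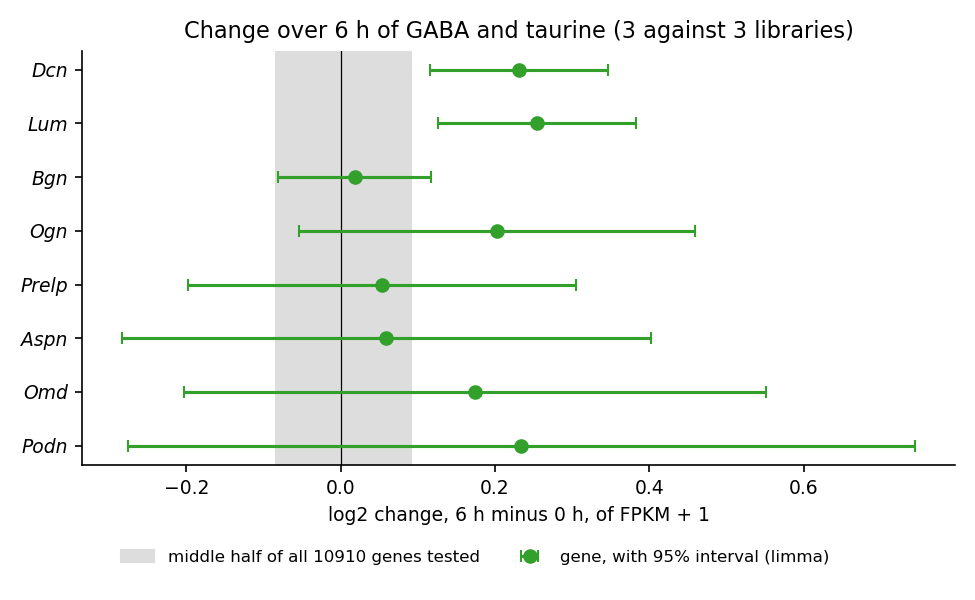
Log2 difference between 6 h and 0 h of FPKM + 1 for the 8 genes tested, with 95% intervals from limma; the grey band holds the middle 50% of all 10910 genes tested. The intervals of Dcn and Lum lie above 0 and those of the other 6 genes include it.

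Of the 9 members, 8 averaged 1 FPKM or more and were tested. In limma 0 of them passed an adjusted p of 0.05, where 0.55% of the 10910 genes did, 0.238% as higher and 0.312% as lower at 6 h. At an unadjusted p under 0.05, 2 of the 8 were higher and 0 lower, and 9.38% of all genes had such a p, 4.45% with higher values at 6 h. All 8 differences were positive, with a median of 0.19, where 49.5% of all genes had positive differences and their median was -0.002. Aspn turned to -0.076 without 6 h replicate 3 and Podn to -0.030 without 0 h replicate 3, so 7 of 8 were positive in each of these fits. No model other than limma was run.

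The summed FPKM of the 9 genes was 839.3 ± 7.42 at 0 h and 920.2 ± 4.54 at 6 h, and decorin accounted for 63.7% and lumican for 26.3% of that difference. Biglycan, which was the level member, made up 48.8% ± 0.591 of the sum at 0 h and 45.1% ± 1.19 at 6 h, with all 6 h shares below all 0 h shares. The lumican share was 13.0% ± 0.644 and 14.2% ± 0.719, again with no overlap. The exact permutation p was 0.1 for each of these 2 shares, unadjusted, among 9 shares compared. The difference in the lumican share, 1.17 percentage points, was 0.754 without 6 h replicate 1. The decorin share, at 35.2% ± 1.05 and 37.7% ± 1.51, overlapped between the times (exact permutation p = 0.2).

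Mmp3 was the one gene of the related lists past the test over the 6 h. Of the 20 linker and chondroitin or dermatan sulfate enzymes tested 0 passed in limma, and the smallest adjusted p was that of Csgalnact1, which starts chondroitin chains, at 28.4 ± 2.26 and 34.4 ± 1.52 FPKM (limma adjusted p = 0.243). B3galt6 and B3gat3, enzymes of the linker, came next, with limma adjusted p-values of 0.603 and 0.617. Of 4 keratan sulfate enzymes 0 passed, with Chst2, B4galt4 and St3gal1 at limma adjusted p-values of 0.625, 0.657 and 0.864. Of 11 collagens 0 passed, 9 had positive differences and 3 an unadjusted p under 0.05. These 3 were Col3a1, Col5a3 and Col14a1, with limma adjusted p-values of 0.135, 0.482 and 0.486. Over all genes tested 49.5% had positive differences, and 4.45% had higher 6 h values with an unadjusted limma p under 0.05. Of 10 proteases and enhancers, Mmp3 rose (548.4 ± 23.6 to 702.4 ± 10.02 FPKM, limma adjusted p = 0.0191). That call held in 9 of 14 limma fits and ended without the filter (adjusted p = 0.244), without the trend (0.304), and without 0 h replicate 2 (0.115), 6 h replicate 1 (0.0573) or 6 h replicate 2 (0.144). Among 18 receptors and ligands 0 passed, and the smallest adjusted p was that of Ctgf, a matricellular factor that decorin binds (limma adjusted p = 0.125), before Tgfbr1 (0.451) and Tgfb1 (0.523). Of 15 other matrix proteoglycans 0 passed, with Cspg4 (0.657), Tgfbr3 (0.689) and Agrn (0.689) lowest by limma adjusted p, and of 3 further family members 0 passed, Chadl (0.603), Tsku (0.689) and Epyc (0.948).

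Marker sums moved with this comparison in part. Those of Foxl1-positive subepithelial cells were 637.6 to 724.2 FPKM at 0 h and 810.5 to 841 FPKM at 6 h, and 6 of 6 tested had positive differences with a median of 0.19. The summed adventitial fibroblast markers overlapped (541.6 to 588.4 and 567.6 to 614.7 FPKM), but 6 of 8 tested had positive differences, with a median of 0.21. Over all genes tested, 49.5% had positive differences, and 4.45% had higher 6 h values with an unadjusted limma p under 0.05. In limma 0 genes of either list passed, and 3 of each had an unadjusted p under 0.05. Those of the Foxl1-positive list were F3, Pdgfra and Foxf1 (limma adjusted p = 0.0877, 0.15 and 0.333). Those of the adventitial list were Ly6c1, Cd34 and Pi16 (limma adjusted p = 0.314, 0.44 and 0.53). The 8 epithelial markers summed to 1.58 to 2.59 and 2.92 to 5.23 FPKM, and only Krt8 among them was tested. Krt8 stood at 0.271, 0.729 and 0.188 FPKM at 0 h and 2.12, 1.75 and 2.31 FPKM at 6 h (limma adjusted p = 0.0319). It averaged 1 FPKM or more through the 6 h libraries alone, so a higher 6 h value was a condition of its test. The call therefore decides nothing. It held in 5 of 13 limma fits. Without either of 0 h replicates 1 and 2 (limma adjusted p = 0.11 and 0.112) or without 6 h replicate 1 (0.126), 2 (0.144) or 3 (0.0802) it was lost. Leukocyte markers were near 0 at both times (0.639 to 2.25 and 0.901 to 1.21 FPKM), and smooth muscle markers overlapped (1131 to 1190 and 1143 to 1253 FPKM). Endothelial sums also overlapped (2.62 to 4.3 and 1.65 to 5.12 FPKM), as did those of pericytes (12.8 to 14.8 and 11.6 to 13.9 FPKM) and enteric glia (0.562 to 0.711 and 0.593 to 0.743 FPKM). Mesothelial sums were 0.883 to 1.33 at 0 h and 1.58 to 2.22 FPKM at 6 h, and 0 of these 4 markers were tested. Mean Msln went from 0.00877 to 0.778 FPKM and mean Wt1 from 1.11 to 0.889 FPKM. Upk3b and Lrrn4 averaged 0.0283 and 0.157 FPKM at 6 h, against 0 and 0.0295 FPKM at 0 h. The part of these cells in the decorin and lumican values was not tested.

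In the genotype comparison, which asks what changes when Cxcl12 is deleted with Foxl1cre, the 9 genes stood close together in the 2 libraries. Decorin, lumican and biglycan were 1.08, 1.12 and 1.07 times as high in the Foxl1cre library as in the control. Asporin (1.1 times), podocan (1.24 times) and fibromodulin (1.67 times, at 5.14 against 3.07 FPKM) were also higher. Osteoglycin (0.923 times), Prelp (0.948 times) and osteomodulin (0.863 times) were lower. On the log2(FPKM + 1) scale the differences ran from -0.21 for Omd to 0.59 for Fmod, and the latter lay at percentile 96 of the 14949 genes that averaged 1 FPKM or more. With 1 library per genotype no test was possible and no difference has a replicate check.

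Of the 9 members, 6 were higher in the Foxl1cre library, where 55% of all genes were, and 0 of 9 differed by at least 2-fold, where 3.59% of all genes did, 1.36% as higher and 2.22% as lower. The median of the 9 was 0.12, against 0.04 over all genes and 0.07 over the 898 genes averaging 100 FPKM or more. The neighbours Ogn and Omd were both lower and Aspn, next to them, was higher. The class I genes Dcn, Bgn and Aspn were all higher, by 0.12, 0.09 and 0.13 on the log2 scale.

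**Figure D5:**
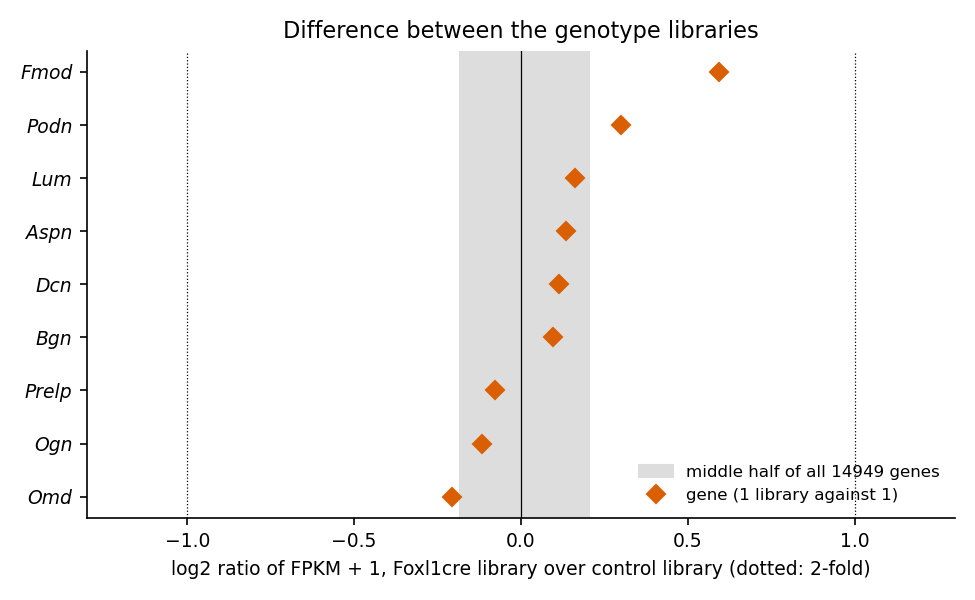
Log2 ratio of FPKM + 1 in the Foxl1cre library over the control library for the 9 genes, 1 library against 1; the grey band holds the middle 50% of 14949 genes and dotted lines mark 2-fold. All 9 genes lie between -0.21 and 0.59.

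Over all genes averaging 1 FPKM or more, 55% were higher in the Foxl1cre library, with a median log2 difference of 0.04. Around the family, all 11 collagens were higher there, with a median of 0.17. Furthest were Col5a3 (112.3 against 81.2 FPKM), Col6a3 (178.4 against 130.9 FPKM) and Col12a1 (89 against 71.7 FPKM). Of 21 chain linker and chondroitin or dermatan sulfate enzymes 16 were higher, with Csgalnact1 (10.4 against 5.68 FPKM), Csgalnact2 and Chst11 furthest. Of 19 other matrix proteoglycans 15 were higher, and the 3 furthest were Esm1 (0.669 against 1.78 FPKM), Spock2 (7.68 against 4.97 FPKM) and Vcan (25.9 against 18.2 FPKM). Of 6 keratan sulfate enzymes 4 were higher. Those furthest apart in either direction were B4galt4 (6.36 against 8.30 FPKM), Chst2 (14.3 against 12.2 FPKM) and Chst1 (33.2 against 28.9 FPKM). Of 5 further family members 2 were higher. Here Chadl (3.12 against 1.78 FPKM), Kera (1.37 against 2.05 FPKM) and Ecm2 (31.3 against 28.6 FPKM) were furthest apart in either direction. Of 10 proteases and enhancers 8 were higher, Adamts4 (89.6 against 61.7 FPKM), Mmp3 and Gzmb most of all. Among 18 receptors and ligands, 14 of them higher, the VEGF receptor Kdr (1.78 against 4.57 FPKM) was the single one past 2-fold, and Egfr, a decorin receptor, stood at 51.5 against 32.1 FPKM and Tgfbr1 at 17.1 against 12.6 FPKM.

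In the same 2 libraries the 8 epithelial markers were all higher in the Foxl1cre library, where 55% of all genes were. Their sums were 959.9 against 91.6 FPKM. Of 7 leukocyte markers, the 6 that averaged 1 FPKM or more were higher, and Itgam, below that level, was lower (0.707 against 0.975 FPKM). Their sums were 92 against 74.3 FPKM. Of 6 endothelial markers, the 5 that averaged 1 FPKM or more were lower, and Cdh5, below that level, was higher (0.628 against 0.577 FPKM). Their sums were 18.9 against 41.9 FPKM. The summed markers of adventitial fibroblasts and Foxl1-positive cells were higher by smaller amounts (2129 against 2027 and 1232 against 1121 FPKM). Of 7 smooth muscle markers 3 were higher and 4 lower, with a median log2 difference of -0.075, while their sum was higher (815.9 against 679.5 FPKM). Their part in the differences of the 9 genes was not tested.

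Genes with the most similar profile were found by the root-mean-square difference between log2(FPKM + 1) profiles over the 8 libraries, each centred on its mean, among 6632 genes averaging 10 FPKM or more. Sfrp1, a secreted Wnt antagonist, was the most like decorin (0.075), before Ms4a4d (0.079). The chemokine gene Ccl11 (0.088) and the selenoprotein gene Sepp1 (0.10) were most like lumican, and Ctdsp2 (0.052) and Vwa5a (0.052) most like biglycan. For Prelp they were the predicted gene Gm17644 (0.086) and Tmem119 (0.10), for Aspn the BMP family gene Bmp3 (0.11) and Gpx3 (0.17), and for Omd Myl12b (0.12) and Igfbp4 (0.14). For Podn they were Scara5 (0.19) and Fxyd1 (0.20). For Ogn they were the vomeronasal receptor gene Vmn1r58 (0.11) and the predicted gene Gm10845 (0.24). Each profile includes the difference between the 2 sets, and the likeness is a description with no test. Vmn1r58 (91 and 71.9 FPKM in the genotype libraries, at most 0.105 in the others) averaged 10 FPKM through the genotype libraries alone. So did Bmp3 (46.8 and 46.2 against at most 0.403), Gm17644 (65.2 and 57.2 against at most 0.539), Gm10845, Sfrp1 and Scara5. For these genes a gap between the sets was a condition of entry.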

How the data were processed

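Per the file headers, the authors deposited FPKM values for each gene symbol, in 1 table per library. Tools named without roles in the submitters' processing notes are Cuffdiff 2.2.1, TopHat2 2.1.1, SAMtools 0.1.18 and Bowtie2 2.2.8, and the build named is mm10. Annotation, treatment of multi-mapping reads and scaling across libraries were not given in the sources used here. Read depth is unknown, and counting intervals could not be computed. The 0 h and 6 h libraries were compared with limma (version 3.58.1, R 4.3.3) on log2(FPKM + 1), using its intensity trend, for genes averaging 1 FPKM or more over the 6, with Benjamini-Hochberg adjustment over all of them and a threshold of 0.05. The fit was also run on simulated data with independent normal noise, which cannot show whether calls hold in the real libraries. P-values measure the spread between libraries, which may be technical. The genotype and library set comparisons have no test. The requirement of 1 FPKM in each library set, and the refits given for Mmp3 and Krt8, were chosen after seeing the data. The members and lists were chosen with earlier results of these data known. The text names all 9 members. Of each related list it names genes past the threshold, otherwise up to 3 with the smallest limma p, and in the genotype comparison up to 3 with the largest absolute log2 ratio. Alternatives covered the pseudocount, the filter, rescaling, the replicate block, the trend, all 8 libraries in 1 fit and leaving out each library.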

Additional observations from a re-analysis of the deposited data

How the results depend on the processing

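The number of members past the limma threshold was 0 under every alternative run, and their median log2 change stayed positive, from 0.11 to 0.20 with 1 library left out. Same-numbered libraries at 0 h and 6 h did not deviate together (correlations across genes of -0.04, 0.01 and -0.03). With the replicate block the median was 0.19, 0 members passed, and over all genes 14 were higher and 9 lower, against 26 and 34 without it. Without the filter, or without the trend, limma called 0 genes of the whole table, and with 1 library left out 0 to 47 were higher and 2 to 68 lower, so the background share moves with these choices. The adjusted p over all limma fits ran from 0.0539 to 0.443 for Dcn and from 0.0509 to 0.416 for Lum. The lowest values came with a minimum mean of 10 FPKM for Dcn and without 0 h replicate 3 for Lum. With 1 library left out, the log2 change of Aspn ran from -0.076 (without 6 h replicate 3) to 0.25 and that of Podn from -0.030 (without 0 h replicate 3) to 0.41. The difference in lumican share between 6 h and 0 h was 2.69 percentage points with Dcn left out of the sum and 1.17 with it, and ran from 0.754 to 1.54 with 1 library left out. In the genotype comparison 0 members were past 2-fold under all 4 alternatives, while the count over all genes went from 536 to 1150 with a pseudocount of 0.1 and to 77 with a minimum mean of 10 FPKM. Between the library sets the 8 members with at least 1 FPKM in each set counted as higher under all alternatives run. Fmod was counted as higher too wherever the filter admitted it, and it reached 1 FPKM through the genotype libraries alone. The median with Fmod was 4.22, and leaving out 1 library, an alternative chosen after seeing the data for this median, gave 4.12 to 4.34. Without the control (4.34) or the Foxl1cre library (4.13), Fmod fell below the filter and the median is over 8 members. Over all genes 2643 counted as higher in the genotype set, against 5176 without the filter and 860 with a minimum mean of 10 FPKM. Read depth is unknown, and the lowest values, those of Fmod, Podn and Omd in the GABA and taurine libraries, have no counting interval.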
